A study of Mus musculus with 160 samples.

Results

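The Slc4 bicarbonate and borate transporters were described by 9 members, Slc4a1, Slc4a2, Slc4a3, Slc4a4, Slc4a5, Slc4a7, Slc4a8, Slc4a10 and Slc4a11, taken by gene symbol from the 43432 genes measured. The set was chosen with the fall of Slc4a11 in Q175 striatum and cortex known. The study profiled 5 tissues (striatum, cortex, heart, liver and the tibialis muscle) of 32 mice on the C57BL/6J background by RNA sequencing, giving 160 libraries, each of 1 mouse and 1 tissue. The wild-type (WT) group received vehicle. The other 3 groups were heterozygous Q175 knock-in mice, a Huntington's disease model whose own Htt gene carries an expanded CAG repeat in every cell, and received vehicle or CHDI-00390576, an inhibitor of class IIa histone deacetylases, at 30 or 100 mg/kg. Dosing was oral and b.i.d., began at 4 weeks of age in all groups and ended with tissue collection at 6 months. Each group held 8 mice, 4 males and 4 females, so that a value of 1 group in 1 tissue rests on 8 libraries (n = 8 unless another n is given).

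SLC4 proteins are membrane carriers that move bicarbonate, carbonate or related ions and thereby set the pH inside cells and in the fluid around them. Some exchange chloride for bicarbonate and acidify the cell, others carry bicarbonate in together with sodium and alkalinise it, and SLC4A11, named for its likeness to plant borate transporters and known from the corneal endothelium, is reported to carry protons, water and ammonia rather than bicarbonate. In the brain, astrocytes use the electrogenic cotransporter SLC4A4, neurons use the sodium-coupled carriers SLC4A8 and SLC4A10, and the choroid plexus, which makes cerebrospinal fluid, uses SLC4A5 and SLC4A10 among others.

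The chloride-bicarbonate exchangers were Slc4a1 (AE1, the main anion exchanger of red cells, also found in kidney; chromosome 11), Slc4a2 (AE2, found in most tissues; chromosome 5) and Slc4a3 (AE3, the exchanger of heart and brain; chromosome 1). The sodium-coupled carriers were Slc4a4 (NBCe1; chromosome 5), Slc4a5 (NBCe2; chromosome 6), Slc4a7 (NBCn1, an electroneutral cotransporter; chromosome 14), Slc4a8 (NDCBE, a sodium-driven chloride-bicarbonate exchanger; chromosome 15) and Slc4a10 (NCBE or NBCn2; chromosome 2). Slc4a11 also lies on chromosome 2. RefSeq start sites (GRCm38.p6) were matched for 7 of the 9 members and gave 10 windows of 250 bases before a start. The windows of Slc4a4, which has a pair of starts and fell in Q175 striatum, of Slc4a3, whose transcripts differed between brain and heart, and of Slc4a10, the leading member in cortex, are printed because these members carry the results, with the GC box GGGCGG on either strand in capitals and each window on the plus strand at chr5:88887010-88887259, chr5:89027716-89027965, chr1:75546212-75546461 and chr2:62046265-62046514 in that order.
Slc4a4, start 1: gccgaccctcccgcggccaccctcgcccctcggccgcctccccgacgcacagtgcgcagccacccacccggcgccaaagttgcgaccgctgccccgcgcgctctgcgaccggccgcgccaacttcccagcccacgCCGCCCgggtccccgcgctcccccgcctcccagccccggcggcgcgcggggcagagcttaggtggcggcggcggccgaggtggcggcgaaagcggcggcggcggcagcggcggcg
Slc4a4, start 2: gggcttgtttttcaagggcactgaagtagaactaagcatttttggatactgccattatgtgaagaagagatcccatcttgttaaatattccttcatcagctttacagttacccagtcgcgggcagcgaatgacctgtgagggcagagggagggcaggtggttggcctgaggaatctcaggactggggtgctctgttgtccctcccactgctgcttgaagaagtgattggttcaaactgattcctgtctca
Slc4a3: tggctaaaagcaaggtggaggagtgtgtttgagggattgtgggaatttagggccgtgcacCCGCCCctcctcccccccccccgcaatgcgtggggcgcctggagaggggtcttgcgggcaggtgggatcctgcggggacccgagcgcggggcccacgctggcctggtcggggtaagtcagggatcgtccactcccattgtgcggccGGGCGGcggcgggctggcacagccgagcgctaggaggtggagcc
Slc4a10, start 1: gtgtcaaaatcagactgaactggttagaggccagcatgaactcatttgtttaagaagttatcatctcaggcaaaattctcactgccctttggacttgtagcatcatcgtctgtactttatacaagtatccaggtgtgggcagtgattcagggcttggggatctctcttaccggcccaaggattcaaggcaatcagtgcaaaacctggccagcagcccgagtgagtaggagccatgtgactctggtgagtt

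The starts of Slc4a4 differed in base composition. The window of start 1 was 82.0% G and C with 44 CpG and 1 GC box, whereas that of start 2 was 48.8% G and C with 3 CpG and no GC box. The Slc4a3 window was 70.0% G and C with 20 CpG and 2 GC boxes, and the Slc4a10 window was 47.6% G and C with 3 CpG and 1 TATAAA. Over 32851 windows of all genes the median was 52.4% G and C. On both strands, the GC box was found in 3 of the 10 members' windows against 32.7% of all windows, TATAAA in 3 against 12.4% and CCAAT in 4 against 33.8%. CACGTG (6.02% of all windows), TGACGTCA (1.55%) and the MEF2 consensus (2.92%) were found in none of the 10. The MEF2 consensus can overlap TATAAA, and no other pair of these motifs contains one another. A match is only a run of letters in the window.

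The estimated counts of a library summed to between 29.8 M and 44.9 M (M, mega), and each mouse gave all 5 tissues. In 3 mice labelled Q175 (1 of the vehicle group and 2 of the 100 mg/kg group, all males), striatal Wt1, a gene that separated the other Q175 mice from WT, was 0.0634, 0.0838 and 0.122 CPM (counts scaled to a common library total), under the highest WT value of 0.287, whereas the other 21 Q175 mice ranged from 3.06 to 5.62 CPM. RNA of another tissue made up over 0.1% of 10 libraries, up to 26.8% in 1 cortex library of the 30 mg/kg group. These were 2 striatum (both WT), 3 cortex, 4 tibialis (3 of them WT) and 1 liver library, and no heart library. Where leaving out either set changed a member's call for genotype or dose, or ended that of a pathway gene, the refitted value is given. The same was done for members' calls between tissues of WT mice, leaving out the libraries that held foreign RNA. Differences between effects in 2 tissues were not refitted without either set.

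The leading member depended on the tissue (the plot of the 9 members' FPKM by tissue and group). In WT mice, Slc4a4 was highest in striatum, liver and tibialis, Slc4a10 in cortex and Slc4a3 in heart. FPKM, fragments scaled to transcript length and to the library total, were used for levels because they allow comparison between genes. Summed over the 9 members, the WT level was 153 FPKM in cortex, 130 in striatum, 72.9 in heart, 24.5 in liver and 11 in tibialis.

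**Figure D1:**
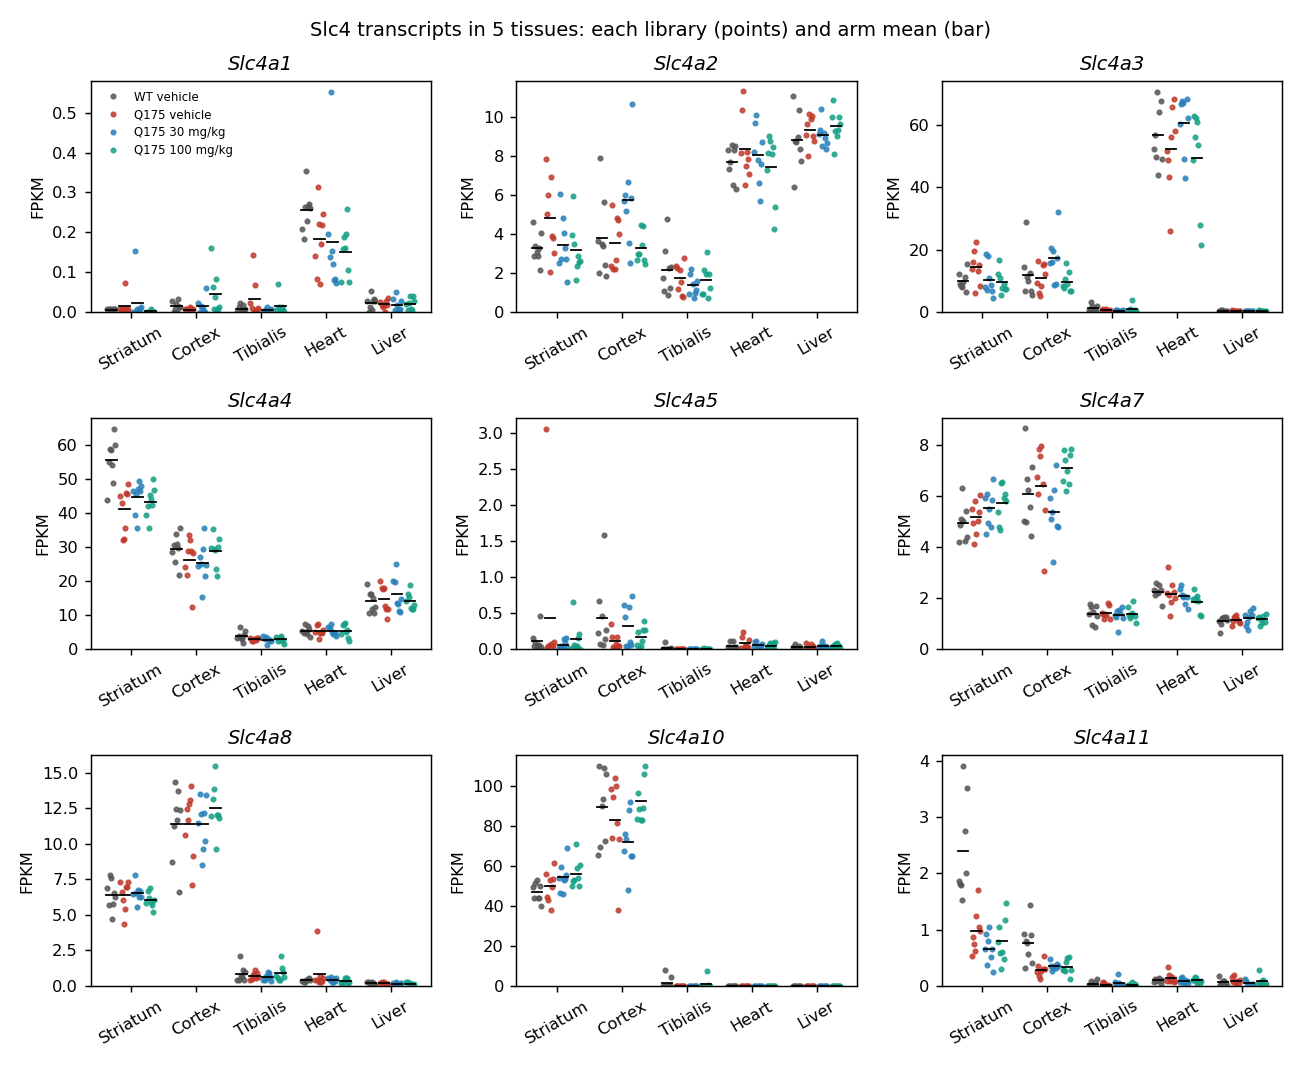
FPKM of each of the 9 members (1 panel each) in 5 tissues, with 1 point per library, coloured by group, and a bar at each group's mean of 8 libraries. Slc4a10 stands highest in cortex (WT mean 89.5 FPKM), Slc4a3 in heart (56.8) and Slc4a4 in striatum (55.5), while Slc4a1 and Slc4a5 stay low in all 5 tissues.

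Among the sodium-coupled carriers in WT striatum, Slc4a4 averaged 55.5 ± 6.63 FPKM (SD), or 42.7% of the members' sum, and Slc4a10 averaged 47.0 ± 4.47 FPKM, or 36.3%. In WT cortex the order was turned, with Slc4a10 at 89.5 ± 18.3 FPKM (58.1%) and Slc4a4 at 29.5 ± 4.44 FPKM (19.3%). Slc4a8 averaged 6.42 ± 1.04 FPKM in striatum and 11.4 ± 2.58 in cortex. Slc4a7 averaged 4.95 ± 0.710 and 6.08 ± 1.39 FPKM there, close to Slc4a8 in striatum but below it in cortex.

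The anion exchangers were led by Slc4a3 in heart, at 56.8 ± 9.75 FPKM or 77.8% of the sum, whereas it averaged 9.96 ± 2.81 in striatum, 11.9 ± 7.56 in cortex and 0.276 ± 0.131 in liver. Slc4a2 was measured in every tissue, at 8.79 ± 1.45 FPKM in liver, 7.68 ± 0.896 in heart, 3.77 ± 2.05 in cortex, 3.28 ± 0.764 in striatum and 2.15 ± 1.28 in tibialis. Slc4a1 averaged 0.255 ± 0.0512 FPKM in heart and 0.0226 FPKM or less in the other 4 tissues of WT mice. In tibialis, the most abundant member was Slc4a4 at 3.78 ± 1.42 FPKM, and Slc4a10 had a WT mean of 1.69 but a median of 0.128 FPKM, with its highest values, 8.15 and 4.47 FPKM, in the 2 WT libraries that held brain RNA.

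Slc4a11 averaged 2.4 ± 0.888 FPKM in WT striatum, 0.767 ± 0.350 in cortex, 0.0990 ± 0.0304 in heart, 0.0671 ± 0.0525 in liver and 0.0427 ± 0.0485 in tibialis. The WT ranges in heart, liver and tibialis overlapped. Slc4a5 was highest in cortex, at 0.429 ± 0.508 FPKM, with an SD larger than the mean.

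Tissue pairs were compared with edgeR's quasi-likelihood test, with the mouse as a block and Benjamini-Hochberg adjustment over all genes, and a difference was called at an adjusted p under 0.05. Of 90 comparisons (9 members, 10 tissue pairs) in WT mice, 74 were called. All 9 members differed between striatum and heart (84.5% of all genes did), between striatum and liver (86.4%) and between cortex and heart (83.1%). In striatum against tibialis 8 were called (80.9%), as in cortex against liver (85.9%), and 7 in cortex against tibialis (81.8%), tibialis against heart (69%) and tibialis against liver (81.1%), and 6 in heart against liver (70.7%). Without the libraries that held foreign RNA, tibialis against liver lost the calls of Slc4a10 (0.53, adjusted p = 0.0818) and Slc4a1 (-1.15, adjusted p = 0.121). It gained those of Slc4a11 (-2.16, adjusted p = 0.0123) and Slc4a5 (-4.79, adjusted p = 0.0435). Slc4a1 also lost its call in striatum against tibialis (-1.14, adjusted p = 0.212). Slc4a3 was higher in heart, with log2 fold changes of -2.4 in cortex against heart, -2.71 in striatum against heart and 7.66 in heart against liver. With limma on log2 FPKM, 72 were called, and 3 had the opposite sign to edgeR, none of which was called in both. In striatum against cortex, 4 of 9 members were called in WT mice, against 26.3% of all genes. Slc4a4 was higher in striatum by 1.02 ± 0.13 (log2 fold change and SE, adjusted p = 4.26e-07), as was Slc4a11 by 1.75 ± 0.35 (adjusted p = 0.000284). Slc4a8 was lower in striatum (-0.71 ± 0.21, adjusted p = 0.0117), as was Slc4a5 (-1.80 ± 0.60, adjusted p = 0.0260; 0.0630 without the libraries that held foreign RNA). Slc4a10 differed by -0.84 ± 0.57 without a call (adjusted p = 0.301), but was lower in striatum without the libraries that held foreign RNA (-0.88, adjusted p = 0.000364). In Q175 vehicle mice, where 23.8% of all genes were called, the values were -0.71 for Slc4a10 (adjusted p = 0.00272), 1.77 for Slc4a11 (adjusted p = 0.000511), 0.66 for Slc4a4 (adjusted p = 0.00589) and -0.79 for Slc4a8 (adjusted p = 0.00813).

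The Slc4a3 transcripts of brain and heart differed in length. The length implied by the deposited values, the estimated count divided by the FPKM and the library total, is a mean over the isoforms that the authors' quantification assigned. For Slc4a7 it was 7389 bases in every library, and for Slc4a4 its medians lay between 7618 and 7861 bases in the 5 tissues. For Slc4a3 the median over 32 libraries was 3397 bases in heart (2920 to 5243), 4271 in striatum (3981 to 5013) and 4932 in cortex (4531 to 5979). In WT mice it was longer in cortex than in heart of the same mouse by 1823 ± 238 bases (SD) and longer in striatum than in heart by 1049 ± 267 bases, in 8 of 8 mice each, and striatum was shorter than cortex in 8 of 8 (-775 ± 393 bases). Each of these 3 differences had a two-sided exact permutation p of 0.00781, the smallest that 8 pairs allow, and a Benjamini-Hochberg value of 0.0426 over 60 such tests. In Q175 vehicle mice the cortex was longer than the heart by 1598 ± 546 bases (Benjamini-Hochberg value of exact permutation tests 0.0426), while the other 2 differences, 851 and -747 bases, had values of 0.0521 and 0.0852. Slc4a2 implied 2701 and 2753 bases in striatum and cortex against 3102 in heart and 3155 in liver. Slc4a8 implied 9989 and 9923 bases in brain against 6932 in tibialis (2859 to 11791) and 8396 in heart (4067 to 11791). In WT mice the Benjamini-Hochberg values of these differences, from exact permutation tests, were 0.0521 to 0.117 for Slc4a2 and 0.0977 to 0.138 for Slc4a8. In Q175 vehicle mice Slc4a8 in tibialis against striatum and cortex, and Slc4a2 in striatum against liver, had 0.0426, and the others were over 0.05. Further pairs had 0.0426 by the same tests, each in 8 of 8 mice. In WT mice Slc4a2 was shorter in tibialis, libraries with foreign RNA included, than in heart (-727 ± 308 bases) and liver (-717 ± 420). Slc4a4 was shorter than in liver in WT cortex (-237 ± 117 bases) and in Q175 vehicle striatum (-133 ± 134).

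**Figure D2:**
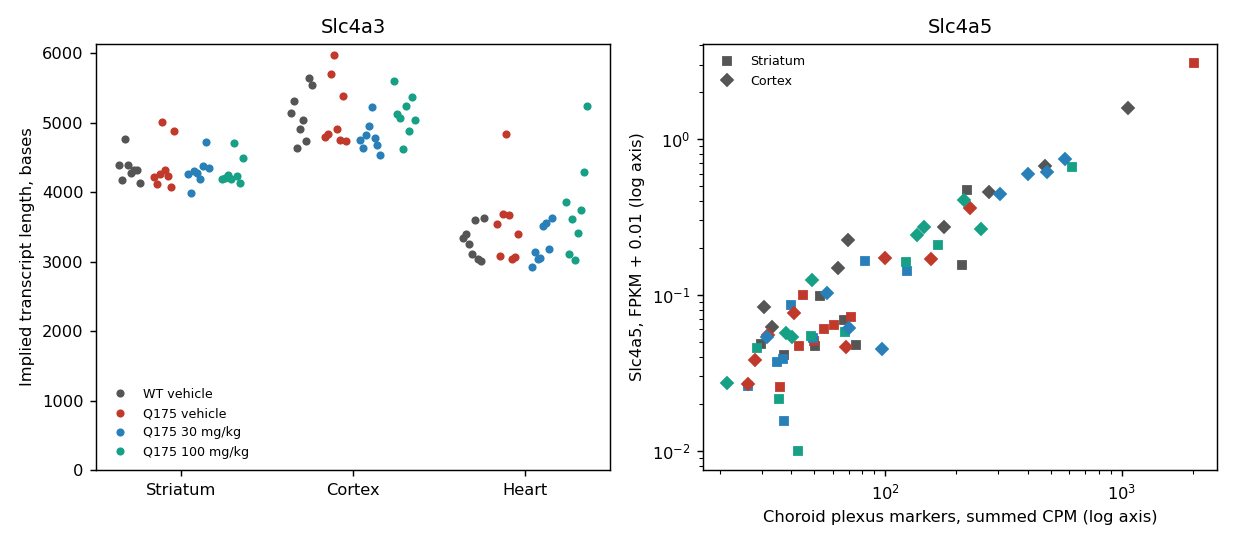
Left, the transcript length implied by count and FPKM for Slc4a3, in bases, with 1 point per library in striatum, cortex and heart, coloured by group: the medians are 4271, 4932 and 3397 bases. Right, Slc4a5 (FPKM + 0.01, log axis) against the summed CPM of 12 choroid plexus markers (log axis) in striatum (squares) and cortex (diamonds), where the libraries with the highest sums, 2019 and 1060 CPM, have the highest Slc4a5, 3.05 and 1.58 FPKM.

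Slc4a11 and Slc4a4 fell in the striatum of Q175 mice. Of the 8 members tested there, these 2 were called lower in Q175 vehicle against WT vehicle mice and none was called higher, against 5.76% of all 17229 genes called in either direction, 3.16% lower and 2.59% higher. Because the fall of Slc4a11 was known when the set was chosen, this count is not a test of the family. The median log2 fold change of the 8 was 0.00, against 0.02 over all genes. Tests in each tissue used edgeR's quasi-likelihood test over all 32 libraries with group and sex as terms.

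The lowest, median and highest values of Slc4a11 in striatum were 1.53, 1.94 and 3.90 FPKM in WT, and 0.534, 0.924 and 1.70 in Q175 vehicle mice. They were 0.251, 0.655 and 1.05 FPKM at 30 mg/kg, with 0.308, 0.688 and 1.47 at 100 mg/kg. All WT libraries stood above all libraries of both dosed groups, and the WT and Q175 vehicle groups overlapped through the lowest WT female and the highest Q175 male, which is 1 of the 3 mice with WT-range Wt1. Groups without overlap and lower than WT were seen for 0.888% of genes at 30 mg/kg and 0.406% at 100 mg/kg, and for Slc4a11 alone among the members. The fall of Slc4a11 was known when the set was chosen, so this is a description. The counts behind these values were 171 to 374 in WT and 26 to 163 in the Q175 groups.

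Within each sex the striatal Slc4a11 values of WT and Q175 vehicle mice did not overlap. In males they were 5.87, 8.17, 10.3 and 11.9 CPM in WT against 2.70, 2.87, 3.87 and 4.98 in Q175 vehicle. In females they were 4.76, 5.56, 5.60 and 5.74 CPM in WT against 1.62, 1.91, 2.26 and 2.32. Of all genes, 0.859% were lower without overlap in both sexes. As this fall was known when the set was chosen, the split by sex describes the same values and is not further support. The dosed groups were also below WT in each sex, as were 1.27% of genes at 30 mg/kg and 0.714% at 100 mg/kg. The male values were spread more widely than the female ones in WT, but the sex term was not called (0.53 ± 0.17, adjusted p = 0.230, against 0.221% of genes called). The effect of genotype was -1.42 in males and -1.46 in females, a difference of 0.04 ± 0.46 (adjusted p = 1.0, against 0.0058% of genes).

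**Figure D3:**
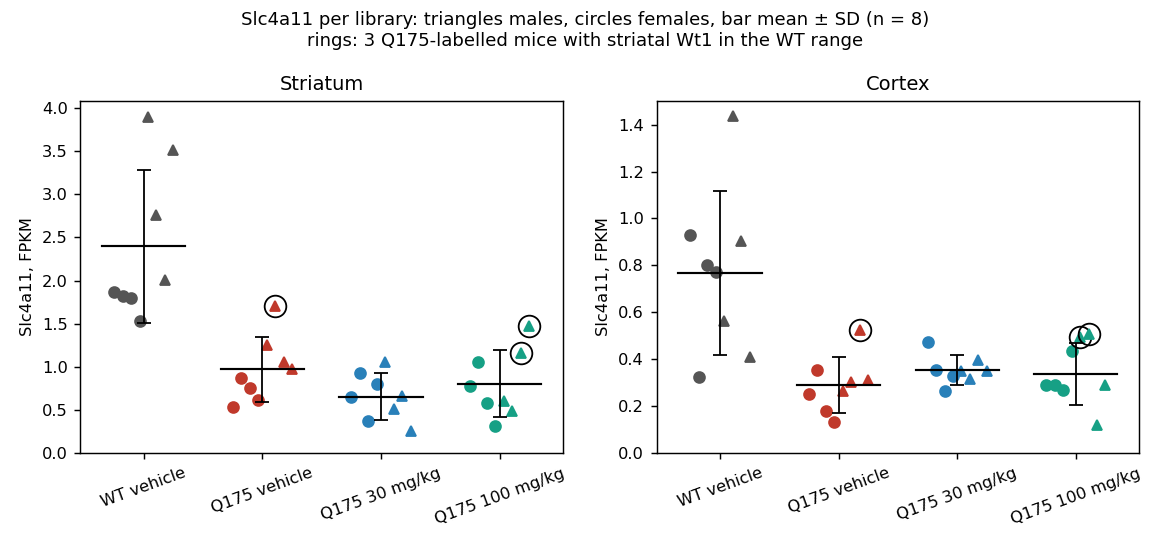
Slc4a11 in FPKM in striatum (left) and cortex (right) by group, with triangles for males, circles for females, a bar and whiskers for the mean ± SD of 8 libraries, and rings around the 3 mice with WT-range Wt1. Striatal means run from 2.4 in WT to 0.970, 0.653 and 0.806 in Q175 mice on vehicle, 30 and 100 mg/kg, and cortical means from 0.767 to 0.290, 0.354 and 0.338.

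Slc4a11 was 2.71-fold lower in Q175 vehicle striatum (log2 fold change -1.44 ± 0.24, 95% interval -1.93 to -0.95, adjusted p = 0.00027). It was lower than WT by -1.82 ± 0.25 at 30 mg/kg (adjusted p = 1.64e-05, against 6.69% of genes called) and by -1.52 ± 0.24 at 100 mg/kg (adjusted p = 0.000197, against 4.94%). The 3 comparisons share the WT mice. Without the 3 mice with WT-range Wt1 the values were -1.57, -1.85 and -1.84, and without the 2 WT libraries that held liver RNA, 1 of which had the highest Slc4a11, they were -1.33, -1.72 and -1.42, and Slc4a11 was called lower in each.

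Slc4a4 in striatum ranged over 43.8, 56.7 and 64.8 FPKM (lowest, median, highest) in WT and over 32.2, 44.0 and 48.6 in Q175 vehicle mice. It ranged over 35.7, 46.5 and 49.6 FPKM at 30 mg/kg, with 35.7, 43.3 and 50.02 at 100 mg/kg. The Q175 medians were all near the lowest WT value, and each Q175 group overlapped with WT. Slc4a4 fell by 0.52 ± 0.11 on the log2 scale in Q175 vehicle mice (95% interval -0.74 to -0.30, adjusted p = 0.00228). In the dosed groups the difference from WT was -0.29 (adjusted p = 0.105) and -0.33 (adjusted p = 0.0637), neither called. Without the 2 libraries that held liver RNA the latter became -0.40 (adjusted p = 0.0456).

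The other 6 members tested in striatum were not called in Q175 vehicle against WT mice. The exchanger Slc4a2 ranged over 2.14, 3.17 and 4.63 FPKM in WT and 2.02, 4.45 and 7.84 in Q175 vehicle mice, a difference of 0.54 ± 0.22 (adjusted p = 0.159). Slc4a3 ranged over 6.30, 9.27 and 15.2 FPKM in WT and 6.03, 14.3 and 22.4 in Q175 vehicle mice, a difference of 0.43 ± 0.21 (adjusted p = 0.227). In both, the Q175 vehicle group enclosed the WT range and reached higher. Slc4a5 differed by 1.49 ± 1.01 (adjusted p = 0.384), with 1 Q175 library far above the rest. Slc4a7, Slc4a8 and Slc4a10 differed by -0.02, -0.05 and 0.03.

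**Figure D4:**
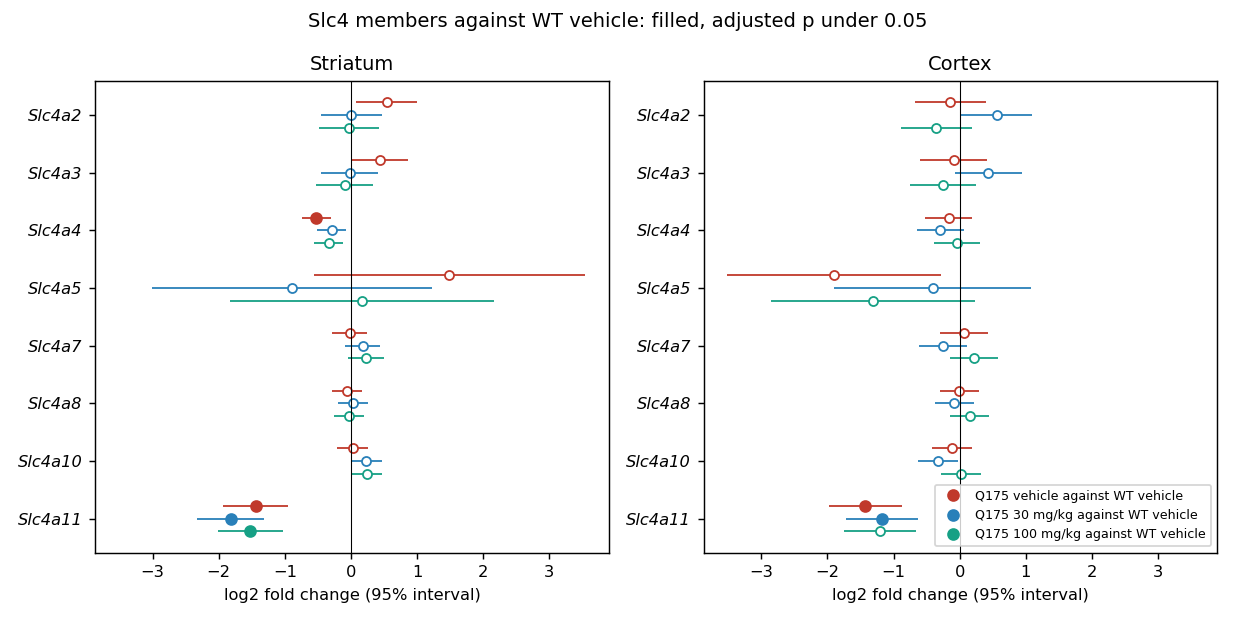
Log2 fold change of the 8 tested members against WT vehicle mice in striatum (left) and cortex (right), for Q175 mice on vehicle, 30 and 100 mg/kg, with 95% intervals from edgeR and filled symbols at an adjusted p under 0.05. Filled symbols are Slc4a11 in striatum in all 3 groups, Slc4a4 in striatum on vehicle, and Slc4a11 in cortex on vehicle and at 30 mg/kg.

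Summed markers of cell types had lower medians in the Q175 groups of striatum, in lists chosen with earlier results of these data known. The summed CPM of 12 medium spiny neuron markers, the main neurons of the striatum, had a median of 8219 (7384 to 9737) in WT, 5958 (4798 to 7411) in Q175 vehicle, 5270 (4246 to 5781) at 30 mg/kg and 5520 (4157 to 7264) at 100 mg/kg. None of the 12 was at 0. The sum of 6 astrocyte markers had a median of 992 CPM (900 to 1088) in WT and 918 (808 to 960) in Q175 vehicle, 896 (840 to 995) at 30 mg/kg and 890 (827 to 981) at 100 mg/kg. The WT and Q175 vehicle spiny neuron sums overlapped only slightly, and the astrocyte sums overlapped more. Their part in the lower Slc4a11 and Slc4a4 was not tested, and in bulk tissue fewer cells of a type and less RNA per cell cannot be told apart. Over all 32 striatal libraries, groups included, the genes most like Slc4a11 among 12970 were Rasgef1a (r = 0.94), Ddn (r = 0.917) and Ryr1 (r = 0.917), and the least like was Pcdhb9 (r = -0.902). Those most like Slc4a4 in striatum were Strn (r = 0.943), Celf1 (r = 0.943) and Slc1a2, the glial glutamate transporter (r = 0.937). These correlations are descriptions over libraries that share group and sex.

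In the cortex Slc4a11 fell as well, from a lower level. It ranged over 0.322, 0.786 and 1.44 FPKM (lowest, median, highest) in WT, 0.132, 0.283 and 0.526 in Q175 vehicle, 0.263, 0.350 and 0.475 at 30 mg/kg, with 0.121, 0.292 and 0.507 at 100 mg/kg. Each Q175 group overlapped with the lowest WT libraries, and the counts were 8 to 146. Slc4a11 was called lower in Q175 vehicle mice (-1.43 ± 0.27, 95% interval -1.98 to -0.88, adjusted p = 0.0352), where 0.0341% of genes were called. It was 1 of 8 members tested, in a set chosen with this fall known. The members' median was -0.13 against 0.01 over all genes. It was lower at 30 mg/kg by -1.18 ± 0.27 (adjusted p = 0.0262, against 0.688% of genes) and differed by -1.21 ± 0.27 at 100 mg/kg (adjusted p = 0.0779, against 0.0455%). The genotype call was lost in 16 of 32 fits that each left out 1 library, was lost without the cortex libraries that held foreign RNA (-1.40, adjusted p = 0.0611) and held without the 3 mice with WT-range Wt1 (-1.61, adjusted p = 0.00589), whose cortical Slc4a11 was 0.526, 0.497 and 0.507 FPKM. Without these 3 mice the 100 mg/kg difference was called as well (-1.5, adjusted p = 0.0139). At 30 mg/kg the call was lost without the foreign libraries (-1.19, adjusted p = 0.279).

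The spiny neuron marker sum was also lower in Q175 cortex, with medians of 873 CPM in WT and 579, 695 and 637 in the vehicle, 30 and 100 mg/kg groups (overall range 455 to 1009), and its part was not tested. The genes most like Slc4a11 over 32 cortical libraries were Nptx2 (r = 0.793), Penk (r = 0.792) and Ppme1 (r = 0.786) of 13313, and the least like was Hmmr (r = -0.718). No other member was called in cortex. Slc4a5 had the widest interval there, at -1.90 ± 0.79 in Q175 vehicle mice (adjusted p = 1.0).

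The genotype effect on Slc4a11 in striatum differed from that in heart and liver. The set was chosen with the fall in striatum and cortex known, so the adjusted p-values of these differences are not independent support for it. In males and females the edgeR log2 fold changes were -0.01 ± 0.37 and 0.65 ± 0.36 in heart. They were 0.05 ± 0.70 and 1.38 ± 0.62 in liver. The difference of effects, computed on each mouse's log2 CPM difference with limma, was -1.70 ± 0.33 against heart (adjusted p = 0.010, against 0.806% of genes) and -2.13 ± 0.47 against liver (adjusted p = 0.0297, against 0.544%). Counts of Slc4a11 were only 4 to 32 in heart and 0 to 25 in liver, and the liver difference lost its call with a smaller prior count (-2.4, adjusted p = 0.0676). Against cortex the difference was -0.08 ± 0.25 (adjusted p = 0.912, against 0.148%). Slc4a11 was not tested in tibialis, where counts were 0 to 10. No other member's effect was called as differing between striatum and another tissue, the lowest adjusted p being that of Slc4a4 against liver (-0.57 ± 0.16, adjusted p = 0.114).

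CHDI-00390576 changed no member past the threshold against Q175 vehicle in any tissue, and none was called in these comparisons under the alternatives run, where the smallest adjusted p was 0.0736. In striatum, edgeR called 0 of 8 members and 0% of all genes at either dose, with 16.7% and 24.6% of genes at an unadjusted p under 0.05. Slc4a11 differed from Q175 vehicle by -0.38 at 30 mg/kg (95% interval -0.89 to 0.12, adjusted p = 0.329) and by -0.08 at 100 mg/kg (-0.58 to 0.41, adjusted p = 0.832). Slc4a4 differed by 0.23 (0.02 to 0.45, adjusted p = 0.288) and 0.19 (-0.03 to 0.40, adjusted p = 0.241). Slc4a2 differed by -0.54 and Slc4a3 by -0.45 at the lower dose (adjusted p = 0.288 for each), and by -0.57 and -0.53 at the higher dose (adjusted p = 0.199 for each). The upper bounds of the Slc4a11 intervals, 0.12 and 0.41, were small beside the difference of Q175 vehicle from WT mice, where it fell by 1.44. Between the doses, 0% of striatal genes were called and 1.43% had an unadjusted p under 0.05.

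In cortex, Slc4a11 differed from Q175 vehicle by 0.25 at 30 mg/kg (adjusted p = 0.567, against 0.318% of genes called) and 0.22 at 100 mg/kg (adjusted p = 0.812). At 100 mg/kg edgeR called 0% of cortical genes, and 3.47% had an unadjusted p under 0.05. Between the doses, 45.8% of cortical genes had an unadjusted p under 0.05 and 0.693% were called. Slc4a2 ranged over 2.52, 5.74 and 10.7 FPKM at 30 mg/kg, with 2.44, 2.94 and 4.46 at 100 mg/kg, and Slc4a3 over 8.60, 16.6 and 32 and over 6.52, 8.73 and 15.6. The exchangers stood higher at 30 mg/kg but overlapped, and neither was called (Slc4a2 -0.91 ± 0.26, adjusted p = 0.0564; Slc4a3 -0.69 ± 0.25, adjusted p = 0.0565). Slc4a7 and Slc4a10 differed in the opposite direction (0.47, adjusted p = 0.0589, and 0.35, adjusted p = 0.0730). This comparison depended on which libraries and test were used. With DESeq2, which called 28.9% of all genes, Slc4a2, Slc4a3 and Slc4a7 passed the threshold. Without the 3 mice with WT-range Wt1, edgeR called 42.4% of genes and 5 of 8 members, Slc4a2 (-1.0, adjusted p = 0.0211), Slc4a3 (-0.80, adjusted p = 0.0244), Slc4a7 (0.52, adjusted p = 0.0215), Slc4a10 (0.42, adjusted p = 0.0220) and Slc4a4 (0.38, adjusted p = 0.0386). Without the cortex libraries that held foreign RNA, among them 2 of the 30 mg/kg group, edgeR called none of the 8 members, and the values were -0.86 for Slc4a2, -0.64 for Slc4a3 and 0.37 for Slc4a7 (adjusted p = 0.251 for each).

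In tibialis, heart and liver no member was called for genotype or dose. The background was 0% of genes in each tibialis comparison, 0.00626% for genotype in heart and 0.00667% in liver. Against WT it was 0.0188% for 100 mg/kg in heart and 0.0533% for 30 mg/kg in liver, and between the doses 0.627% in liver. Of 126 member tests with edgeR in these tissues, 18 had an unadjusted p under 0.05, and DESeq2 also called none. Among the 18 were 4 of 6 tibialis tests of Q175 vehicle against WT and 4 of 6 of 30 mg/kg against WT. The WT tibialis group held 2 libraries with brain RNA. The tests share mice, and the share of all genes is not given beside this count, so it is not a result about the members. In liver, where 100 mg/kg was called for 6.85% of genes against Q175 vehicle and 7.21% against WT, 0 of 7 members were called. There Slc4a4 ranged over 8.92, 15.1 and 20.1 FPKM in Q175 vehicle mice and over 11.8, 13.5 and 18.7 at 100 mg/kg, and the groups overlapped widely. Liver Slc4a2 ranged over 7.98, 9.34 and 10.2 FPKM on vehicle and 8.08, 9.49 and 10.9 at 100 mg/kg. The heart exchanger Slc4a3 ranged over 43.9, 54.5 and 70.7 FPKM in WT, 26.1, 54.0 and 68.4 on vehicle, 43.1, 64.6 and 68.4 at 30 mg/kg, with 21.4, 55.0 and 63.0 at 100 mg/kg. All 3 Q175 medians lay inside the WT range. Heart Slc4a7 had the lowest adjusted p there (-0.26 at 100 mg/kg against WT, adjusted p = 0.319). In tibialis the lowest was Slc4a10 in Q175 vehicle against WT (-5.08 ± 1.2, adjusted p = 0.162), where 2 WT libraries held brain RNA, 12.4% and 6.71% by cortex genes and 12.6% and 6.72% by striatum genes. It was -1.12 (adjusted p = 0.866) without the libraries that held foreign RNA. Without the 3 mice with WT-range Wt1, 1 of which gave a further tibialis library with brain RNA, and with those 2 WT libraries kept, Slc4a10 was called lower than WT on vehicle (-4.79, adjusted p = 0.0250) and at 30 mg/kg (-3.93, adjusted p = 0.0307).

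In liver, 32.8% of genes were called by sex, and 2 of 7 members were, a share no higher than that of all genes. Slc4a4 was higher in females, and Slc4a7 was higher in males. Slc4a4 ranged over 8.92, 11.8 and 15 FPKM in 16 males and 10.7, 17.7 and 25.1 in 16 females. Female against male ranges were 10.7 to 19.0 against 10.6 to 15 FPKM in WT and 17.5 to 20.1 against 8.92 to 12.7 on vehicle. They were 13.4 to 25.1 against 10.9 to 14.6 at 30 mg/kg and 14.0 to 18.7 against 11.8 to 13 at 100 mg/kg. The genotype effect was not called as differing between males and females (-0.39 ± 0.18, edgeR adjusted p = 0.673, against 0% of genes). The male minus female log2 difference was -0.48 ± 0.07 (adjusted p = 3.81e-06). Group means in males and females were 12.4 and 15.5 FPKM in WT, 11.2 and 18.4 on vehicle, 12.4 and 19.6 at 30 mg/kg, with 12.1 and 16.1 at 100 mg/kg. Slc4a7 ranged over 1.0, 1.24 and 1.61 FPKM in males and 0.604, 1.09 and 1.33 in females, with wide overlap, and differed by 0.28 ± 0.08 (adjusted p = 0.00587), but was not called with limma on log2 FPKM (adjusted p = 0.0593 and 0.0558 at the smaller and larger pseudocount). No member was called by sex in cortex, tibialis or heart, where 0.0739%, 2.12% and 5.31% of genes were.

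**Figure D5:**
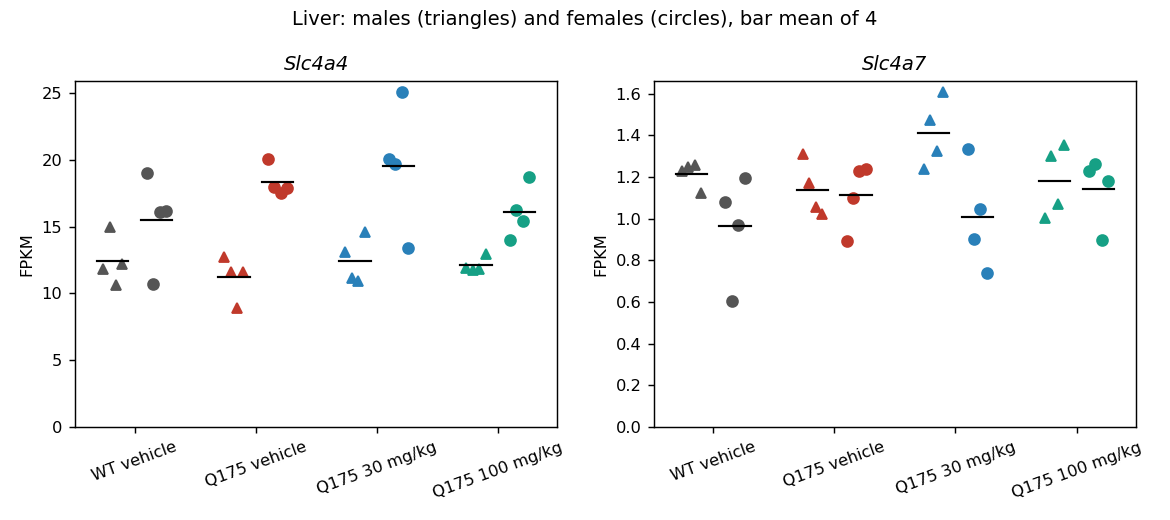
Liver FPKM of Slc4a4 (left) and Slc4a7 (right) by sex and group, with 1 point per mouse and a bar at the mean of 4. Female Slc4a4 means (15.5 to 19.6 FPKM) stand above male means (11.2 to 12.4 FPKM) in all 4 groups.

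Slc4a5 followed the choroid plexus markers. In the 8 groups of striatum and cortex, Pearson's r between log2(CPM + 0.1) of Slc4a5 and the log2 summed CPM of 12 choroid plexus markers was 0.838 to 0.990. In WT cortex r was 0.990 and Spearman's rho 0.952 over 8 mice (exact permutation p = 9.92e-05, Benjamini-Hochberg value 0.00109 over 11 relations), and 0.975 without the 2 mice farthest from the median. In the other cortex groups r without the 2 farthest was 0.691, 0.896 and 0.965. In striatum it fell to 0.319, 0.117, 0.490 and 0.753 in WT, vehicle, 30 and 100 mg/kg mice. Spearman's rho over all 8 mice of these groups was 0.714, 0.762, 0.81 and 0.905 (exact permutation p = 0.0576, 0.0368, 0.0218 and 0.00456). The highest, a Q175 vehicle female, had 3.05 FPKM of Slc4a5 and a marker sum of 2019 CPM against a group median of 52.3 CPM. The genes most like Slc4a5 over 32 cortical libraries were Cldn2 (r = 0.949), Ttr (r = 0.949) and Kl (r = 0.938), of which Ttr and Kl are on the marker list.

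Slc4a1 in heart ranged over 0.184, 0.263 and 0.355 FPKM in WT, 0.0705, 0.195 and 0.314 on vehicle, 0.0733, 0.129 and 0.552 at 30 mg/kg, with 0.0739, 0.159 and 0.258 at 100 mg/kg. No comparison of these overlapping groups was called (100 mg/kg against WT -0.76 ± 0.34, adjusted p = 0.340). Among the genes most like it were the red-cell genes Alas2 (r = 0.851) and Hbb-bt (r = 0.789). The highest library, a 30 mg/kg female, had a summed red-cell marker level of 11830 CPM, where the group medians were 5558 to 6020, but the library with the highest sum, a Q175 vehicle female at 11910 CPM, had 0.221 FPKM of Slc4a1. For the remaining members, the most alike genes in the tissue of their highest level were Flywch1 for Slc4a2 in liver (r = 0.795), Mast2 for Slc4a3 in heart (r = 0.93), Zfp397 for Slc4a7 (r = 0.986), Huwe1 for Slc4a8 (r = 0.978) and Ppargc1a for Slc4a10 (r = 0.974), the last 3 in cortex. The lowest r of those 3 were about as strong, -0.984 (Mrpl54), -0.971 (Eef1b2) and -0.964 (Gtf3a). All are descriptions over 32 libraries of a tissue, with groups and libraries that held foreign RNA included.

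Other genes of bicarbonate and proton transport were taken from lists of carbonic anhydrases, which interconvert carbon dioxide and bicarbonate, SLC26 anion exchangers, sodium-proton exchangers, monocarboxylate transporters and partners of SLC4 proteins. In striatum of Q175 vehicle against WT mice, where 3.16% of all genes were called lower and 2.59% higher, 3 of 13 carbonic anhydrases were called lower and none higher (list median -0.12). Car2 fell by 0.43 ± 0.08 (adjusted p = 0.000481) and Car12 by 0.65 ± 0.14 (adjusted p = 0.00366). Car3 differed by -2.22 ± 0.54 (adjusted p = 0.0102) with 0.533 against 2.78 CPM, a gene rich in liver and muscle, and 2 WT libraries held liver RNA. Without these 2 libraries Car3 differed by -0.75 (adjusted p = 0.259), so that 2 of the 3 calls, Car2 (-0.36, adjusted p = 0.00489) and Car12 (-0.55, adjusted p = 0.0277), were kept. Of the partners, Ahcyl1, which encodes the NBCe1 activator IRBIT, fell by 0.28 ± 0.08 as 1 of 11 (adjusted p = 0.0213), and of 5 monocarboxylate transporters Slc16a7 fell by 0.51 ± 0.13 (adjusted p = 0.0115). None of 9 SLC26 exchangers or 13 sodium-proton exchangers and regulators was called. Car2 and Car12 were also lower than WT at 30 mg/kg (-0.38 and -0.84, adjusted p = 0.00147 and 0.000227) and at 100 mg/kg (-0.34 and -0.50, adjusted p = 0.00691 and 0.0313), as were the proton exchanger Slc9a5 (-0.71 and -0.59) and Slc26a10 (-0.72 and -0.75), each 1 of its list. In all, 2 of 13 carbonic anhydrases were lower at 30 mg/kg, where 6.69% of all genes were called, and 3, with Car3 (-2.14), were lower and 1, Car13, higher (0.58 ± 0.17, adjusted p = 0.0374) at 100 mg/kg, where 4.94% were. The sodium-proton exchanger list also held 2 higher genes at 30 mg/kg, Chp2 (0.62 ± 0.17, adjusted p = 0.0212) and Slc9b2 (0.36 ± 0.11, adjusted p = 0.0315). Without the 2 WT libraries that held liver RNA, the 30 mg/kg calls of Slc26a10 (-0.61, adjusted p = 0.102) and Chp2 (0.51, adjusted p = 0.0976) were lost. At 100 mg/kg those of Car2 (-0.26, adjusted p = 0.0587), Car12 (-0.39, adjusted p = 0.184), Car3 (-0.75, adjusted p = 0.439), Car13 (0.50, adjusted p = 0.160), Slc9a5 (-0.47, adjusted p = 0.174) and Slc26a10 (-0.64, adjusted p = 0.109) were lost. Without the 3 mice with WT-range Wt1, Car3 (-1.93, adjusted p = 0.0763) and Car13 (0.55, adjusted p = 0.0899) lost the call at 100 mg/kg.

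In liver, 1 of 12 carbonic anhydrases was called at 100 mg/kg against Q175 vehicle, a share near the 6.85% of all genes. Car2 rose at 100 mg/kg against Q175 vehicle by 0.78 ± 0.12 (10.5 against 6.07 CPM, adjusted p = 0.00014). The monocarboxylate transporter Slc16a7 rose by 0.49 ± 0.13 (adjusted p = 0.0232). Slc26a10 fell by 1.28 ± 0.32 (adjusted p = 0.0117), and Slc9b2, at 0.0679 against 0.266 CPM, fell by 1.79 ± 0.41 (adjusted p = 0.00738). Gypc, a red-cell membrane protein, rose by 0.46 ± 0.14 (adjusted p = 0.0413). Without the 3 mice with WT-range Wt1, 3 of these were not called, Slc16a7 (0.47, adjusted p = 0.0706), Slc9b2 (-1.43, adjusted p = 0.0508) and Gypc (0.26, adjusted p = 0.243).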

How the data were processed

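Total RNA (Qiagen miRNeasy) was sequenced on Illumina instruments, per the labels. Per the submitters' processing notes, CASAVA 1.8.2 was used. Aligner, build, annotation and strandedness were not given in the sources used here. The authors deposited estimated counts and FPKM per Ensembl gene and library. Of the positive estimated counts, 26.3% departed from whole numbers by over 0.001, and all were rounded before testing. Symbols matched 42462 of 43432 genes. Library totals were 29.8 M to 44.9 M, and counting error is the only error that depth sets.

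Group, sex and replicate came from the titles, and the animal number linked each mouse's tissues; replicate numbers did not pair samples (median same-number correlation of deviations -0.0481 to 0.08). The p-values measure the spread between these mice. Each tissue was fitted in edgeR 4.0.16 (R 4.3.3; filterByExpr, TMM, robust quasi-likelihood, group plus sex), with Benjamini-Hochberg adjustment over all tested genes and a threshold of 0.05. CPM beside library values are per library total, and CPM beside pathway genes are TMM-scaled. Effect differences used limma 3.58.1 (prior count 2). FPKM alternatives used log2(FPKM + 0.1) and log2(FPKM + 1), which understate changes of low genes, and DESeq2 1.42.0 was another alternative. The fits were tested on simulated data. Marker lists, pathway lists and members were chosen with earlier results of these data known. Of the pathway lists, any member past the threshold could be named, at most 4 per list and direction, and likeness names the 3 genes with the highest r and the 1 with the lowest. Not analysed here were gene coordinates in the files' build, and promoter windows came from RefSeq (GRCm38.p6). Some genes that met these rules are not reported here.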

Additional observations from a re-analysis of the deposited data

Results flagged for a closer look

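In groups of 8 libraries, 17 of 148 member values by tissue and group had 1 library far from the other 7 by Dixon's criterion. Independent and normally distributed values would give about 1 in 20. FPKM of low-count members are skewed and some outliers share a library, so no excess is read from these 17. Slc4a5 made up 5 of them, each with a high choroid plexus marker sum: 3.05 FPKM in a Q175 vehicle female and 0.649 in a 100 mg/kg female in striatum (marker sums 2019 and 618 CPM), 0.459 in a WT male in striatum (222 CPM), and 1.58 in a WT male and 0.350 in a Q175 vehicle female in cortex (1060 and 229 CPM). The Q175 vehicle female was the same mouse in both tissues. In WT striatum a female had a marker sum close to that of the male, 211 CPM, with only 0.146 FPKM of Slc4a5. The part of choroid plexus tissue was not tested.

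In tibialis, Slc4a10 at 7.51 and Slc4a3 at 3.67 FPKM stood alone in 1 male at 100 mg/kg, a library in which 12.3% of RNA was of another tissue, and Slc4a8 at 2.08 FPKM in the WT female with 12.4%. Slc4a7 was lowest at 0.651 FPKM in a 30 mg/kg female. In heart, Slc4a1 reached 0.552 FPKM in a 30 mg/kg female, and 1 Q175 vehicle female had the highest Slc4a8, 3.86 FPKM, and the highest Slc4a11, 0.330 FPKM. In liver, Slc4a11 reached 0.290 FPKM in a 100 mg/kg female and Slc4a2 reached 10.4 FPKM in a 30 mg/kg female, while Slc4a7 was lowest at 0.604 FPKM in a WT female.

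In cortex, Slc4a10 was lowest at 38.1 FPKM in a Q175 vehicle male, where the nearest library of the group had 73.4, and that mouse is 1 of the 3 with WT-range Wt1. Slc4a3 reached 28.9 FPKM in a WT female, where the nearest had 14.5.

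The genotype effect on Slc4a11 differed between striatum and heart by -1.70 and between striatum and liver by -2.13 on the log2 scale, by limma's test of the difference, as described above. The fall in striatum was known when the set was chosen.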

How the results depend on the processing

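In striatum, both genotype calls held under the 11 alternatives run, with Slc4a11 from -1.57 to -0.77 (log2(FPKM + 1) at the upper end) and Slc4a4 from -0.59 to -0.43, and in 32 of 32 leave-one-out fits the count of called members was 2 or 3. Dosed mice were compared with Q175 vehicle, with WT and with each other, and calls over these comparisons were counted together. In striatum the 2 calls, Slc4a11 against WT at both doses, became 4 with limma on FPKM at either pseudocount, where Slc4a4 was called against WT at both doses too. At 100 mg/kg against WT, Slc4a4 gained a call in 4 of 9 alternatives and in 7 of 32 leave-one-out fits. In cortex, the 1 genotype call became 0 with no filter on low counts (adjusted p = 0.0682), at both FPKM pseudocounts (0.0813 and 0.0540), with the replicate block (0.0955), without the libraries that held foreign RNA (0.0611), with only the groups compared (0.324) and with the choroid plexus score as a covariate (0.0734). It was lost in 16 of 32 leave-one-out fits (count 0 to 1, adjusted p 0.0086 to 0.113, value -1.6 to -1.27), namely without WT F3, F4, M2 or M3, Q175 vehicle F1, F2, F3, F4, M1, M2 or M4, 30 mg/kg F2, M1 or M3, or 100 mg/kg F2 or M4 (F, female; M, male; replicate numbers), while DESeq2 kept it (0.000379). In cortex the 1 call, Slc4a11 at 30 mg/kg against WT, became 5 with DESeq2 (2 of them Slc4a11 against WT, 3 between the doses) and 7 without the 3 mice with WT-range Wt1 (2 against WT, 5 between the doses), and 0 at both FPKM pseudocounts, with the replicate block, with the format of the column name as a covariate and without the foreign libraries; the call of Slc4a11 at 30 mg/kg was lost in 6 of 32 leave-one-out fits, without 30 mg/kg F4, M3 or M4 or WT F4, M2 or M3. The count of members called by sex rose from 2 to 4 at both FPKM pseudocounts, although Slc4a7 in liver was lost there (0.0593 and 0.0558). The count of 2 effect differences became 1 with a prior count of 0.5. Counts for genotype and dose in tibialis, heart and liver stayed at 0 except for Slc4a10 in tibialis without the 3 mice, called in 2 comparisons, and 72 to 74 tissue differences were called. These were not always differences of the same members, as given above for tibialis. The causes were not tested, and replicate numbers do not mark the same mouse across groups. The cortical Car3 difference turned to -0.42 without the foreign libraries. The fits without the 3 mice, and those of pathway genes without either set, were chosen after seeing the data. Slc4a11 in cortex rests on 8 to 146 counts a library, and lower-count members (Slc4a1, Slc4a5) are limited by counting error.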

Other observations

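Slc4a11 in striatum and in cortex was compared over mice. In the 8 WT mice r was 0.587 (exact permutation p = 0.127), and the male with the highest striatal value (3.90 FPKM) also had the highest cortical value (1.44 FPKM). In the 24 Q175 mice r was 0.344 (permutation p = 0.0991) and Spearman's rho 0.308 (permutation p = 0.142), with r = 0.423 without the 2 mice farthest from the median and a Benjamini-Hochberg value of 0.121 over 11 relations. Without the 3 mice with WT-range Wt1, r over 21 mice was 0.0623 (permutation p = 0.787), so the relation rests on those mice.

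These 3 mice had striatal Slc4a11 of 4.98, 4.55 and 3.5 CPM, at the upper end of their groups, and spiny neuron marker sums of 7411, 6283 and 7264 CPM. Their striatal Slc4a4, 46.0, 46.8 and 50.02 FPKM, was also toward the upper end of their groups (maxima 48.6 on vehicle and 50.02 at 100 mg/kg).

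Car3 was 64.4 CPM in the cortex of 30 mg/kg mice against 1.10 on vehicle (5.68 ± 1.15, adjusted p = 0.0272, edgeR), in a group where 2 libraries held tibialis RNA. Without the libraries that held foreign RNA the difference was -0.42 (adjusted p = 0.729), and without the 3 mice with WT-range Wt1 it was 5.77 (adjusted p = 0.0639).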
